A study of Mus musculus with 14 samples.

Results

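Amino acid transporters are membrane proteins of the solute carrier (Slc) families that move amino acids across the cell membrane. Here 10 of their genes were followed by gene symbol: Slc7a1, Slc7a3, Slc7a5, Slc7a11, Slc3a2, Slc1a4, Slc1a5, Slc6a9, Slc38a2 and Slc38a5. They are 10 of the 23599 symbols used in the compound OB set and of the 54540 used in the compound PD set, and all 10 had a mean of at least 1 FPKM in both sets. The group was picked because Slc7a3 and Slc3a2 measured higher after compound OB, so every compound OB difference of the 10 genes is given as a description, with no test. The compound PD differences were not the stated reason for that choice, and they were tested. The genes were still chosen with earlier results of these data known.

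RNA was sequenced from 12 libraries of cultured BFU-E, the burst-forming progenitors that stand near the start of the red cell lineage, from fetal liver of C57BL/6 mice. All cells were kept in StemSpan SFEM II medium, and no gene edit or transgene is named in the labels. Of the 4 groups of 3 libraries, one received 100 µM of compound OB, one received 3 nM of compound PD, and each compound has its own group given the solvent DMSO. The compounds are known here by these codes only. The sources used here do not give the time in culture, the age of the embryos or whether the 3 libraries of a group came from separate cultures. A p-value therefore covers the spread among these libraries alone, which may be technical. The 2 chromatin samples of the series were not analysed here. Levels are FPKM (fragments counted on a gene, scaled to its length and to the library's mapped fragments), which can be compared between genes of one library. Differences are log2(FPKM + 1), compound minus its own DMSO group, a scale that understates the change of genes with low values.

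Dividing erythroid progenitors import amino acids for protein synthesis, for glutathione and for heme. Some carriers work alone, such as the cationic carriers Slc7a1 and Slc7a3. Others are pairs of a light chain that carries the amino acid and the heavy chain Slc3a2, which brings the light chain to the cell surface. When amino acids run short, cells translate the transcription factor ATF4, which acts on amino acid response elements in its target genes. Several transporter genes are known ATF4 targets. Leucine and arginine brought in by such carriers are sensed by the kinase complex mTORC1, which controls protein synthesis.

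In the GRCm38.p6 assembly (mouse mm10) the 10 genes lie on 9 chromosomes, with Slc7a3 and Slc38a5 both on the X. The RefSeq gene spans are chromosome 5, 148327410 to 148399904 for Slc7a1 and chromosome X, 101079146 to 101090452 for Slc7a3. Slc3a2 spans chromosome 19, 8706882 to 8723369, Slc7a5 chromosome 8, 121881146 to 121907686 and Slc7a11 chromosome 3, 50364936 to 50499087. Slc1a4 spans chromosome 11, 20302180 to 20332713 and Slc1a5 chromosome 7, 16781334 to 16798274. Slc38a2 spans chromosome 15, 96687392 to 96699728, Slc38a5 chromosome X, 8271381 to 8280179 and Slc6a9 chromosome 4, 117835258 to 117869305.

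RefSeq promoter sequences matched 7 of the 10 genes, with 10 start sites among them, and had none for Slc7a3, Slc7a5 and Slc1a5. From the 7 genes, 3 windows of 250 bases that end just before a start site are printed here. Slc7a11 is shown for its amino acid response elements, Slc38a5 for its E-box and Slc3a2 as the heavy chain whose window held none of the motifs searched. The windows of Slc7a11 and Slc3a2 lie inside the gene spans given above. The upstream ends of those spans had no window and were not searched. Capitals mark the motif letters. The Slc7a11 window is chr3:50443614-50443863 on the minus strand, that of Slc38a5 chrX:8271131-8271380 on the plus strand and that of Slc3a2 chr19:8713898-8714147 on the minus strand, all in GRCm38.p6 and written 5′ to 3′ along the gene.
Slc7a11: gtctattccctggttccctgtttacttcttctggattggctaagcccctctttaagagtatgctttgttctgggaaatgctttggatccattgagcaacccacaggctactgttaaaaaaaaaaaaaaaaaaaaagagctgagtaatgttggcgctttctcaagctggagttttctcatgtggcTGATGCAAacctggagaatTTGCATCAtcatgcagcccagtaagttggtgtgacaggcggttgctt
Slc38a5: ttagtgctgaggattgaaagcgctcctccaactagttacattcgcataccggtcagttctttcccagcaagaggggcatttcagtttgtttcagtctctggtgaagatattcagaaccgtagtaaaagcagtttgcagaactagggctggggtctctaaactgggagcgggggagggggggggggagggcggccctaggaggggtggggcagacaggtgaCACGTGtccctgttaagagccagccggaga
Slc3a2: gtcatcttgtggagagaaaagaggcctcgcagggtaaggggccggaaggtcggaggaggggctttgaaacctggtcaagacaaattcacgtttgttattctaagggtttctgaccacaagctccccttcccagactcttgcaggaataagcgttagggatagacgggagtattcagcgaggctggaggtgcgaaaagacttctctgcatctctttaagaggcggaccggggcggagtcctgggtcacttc

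The amino acid response element core was searched as TGATGNAA on both strands. Slc7a11 held it 2 times, in opposite orientation, at -66 to -59 and at -47 to -40 counted from the start site, and no other member window held it, against 3.45% of 32817 promoter windows of this length. The E-box CACGTG, which MYC proteins can bind and which reads the same on both strands, was at -30 to -25 in Slc38a5 and in 6.02% of all windows. The antioxidant response element core TGACNNNGC was in 4 of the 10 windows of these 7 genes, those of Slc38a2, Slc7a1 and 2 start sites of Slc6a9, and in 10.2% of all windows. The full cAMP response element TGACGTCA was in 0 of these 10 windows and in 1.55% of all. Its shorter form TGACG, also searched on both strands, was in 4 member windows (Slc1a4, Slc38a2, Slc6a9 and Slc7a1) and in 17.7% of all, and in Slc38a2 and Slc6a9 it lies inside the antioxidant core. The motif AGATAA of GATA factors was in 0 member windows and in 9.99% of all. A match describes these letters only, and none was tested for binding.

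The 12 libraries carried the RNAs of erythroid progenitors. Gata1 ranged from 132 to 185 FPKM, Klf1 from 125 to 281 and Kit from 20.4 to 41.7. Several libraries stood apart. In the compound OB set both libraries numbered 1 held more RNA of other blood cells: the summed level of 11 listed neutrophil and granulocyte markers was 580 and 485 FPKM in them, against 145 to 180.5 in the other 4, and that of 10 megakaryocyte markers was 1460 and 1055 against 514 to 670. DMSO library 2 of that set held 12380 FPKM of the ribosomal RNA precursor Rn45s, against 175 to 955 in the other 5. In the compound PD set DMSO library 1 held 4406 FPKM of 12 erythroid markers, against 1734 to 2389 in the other 5, with the membrane protein Slc4a1 at 1441 against 317 to 580. The 12 neutrophil markers of that set summed to 11670 to 17640 FPKM in DMSO and to 29800 to 37550 with compound PD, and the 10 megakaryocyte markers to 2465 to 4835 and 4507 to 7907. Hepatocyte, lymphoid and macrophage markers were near 0 in the compound OB set (sums of at most 2.98, 1.60 and 4.39 FPKM, with Ttr, Fga, Cd3e, Ms4a1, C1qb and C1qc listed at 0), and their sums in the compound PD set were at most 6.56, 10.2 and 30.8 (Apoa1, Ttr, Serpina1a, Ahsg and Timd4 among those at 0). Endothelial and stromal markers summed to at most 5.73 and 33.1. Mast cell markers summed to 8.84 to 37.7 in the compound OB set. In the compound PD set they summed to 984 to 2022 in DMSO and to 1635 to 3440 with compound PD. The progenitor receptor Kit measured higher with both compounds, at 23.1 to 25.9 FPKM in DMSO and 36.0 to 41.7 with compound OB, and at 20.4 to 22.7 in DMSO and 27.1 to 41.2 with compound PD (limma adjusted p = 0.495 and 0.351). Of the erythroid and progenitor markers, 9 of 11 tested were above 0 after compound OB, against 58.7% of all genes. The list was mixed after compound PD, with 5 of the 12 above 0, Kit among them, and 7 below, against 59.1% of all genes above 0. Klf1 (185 to 204 FPKM in DMSO, 125 to 182 with compound PD) and Tfrc (464 to 633 and 318 to 437) were lower without overlap. Over all genes 3.72% were lower in this way and 13.1% higher. These values moved with some of the transporter levels below, and their part in them was not tested. In bulk RNA, fewer cells of a type and less RNA per cell cannot be told apart.

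**Figure D1:**
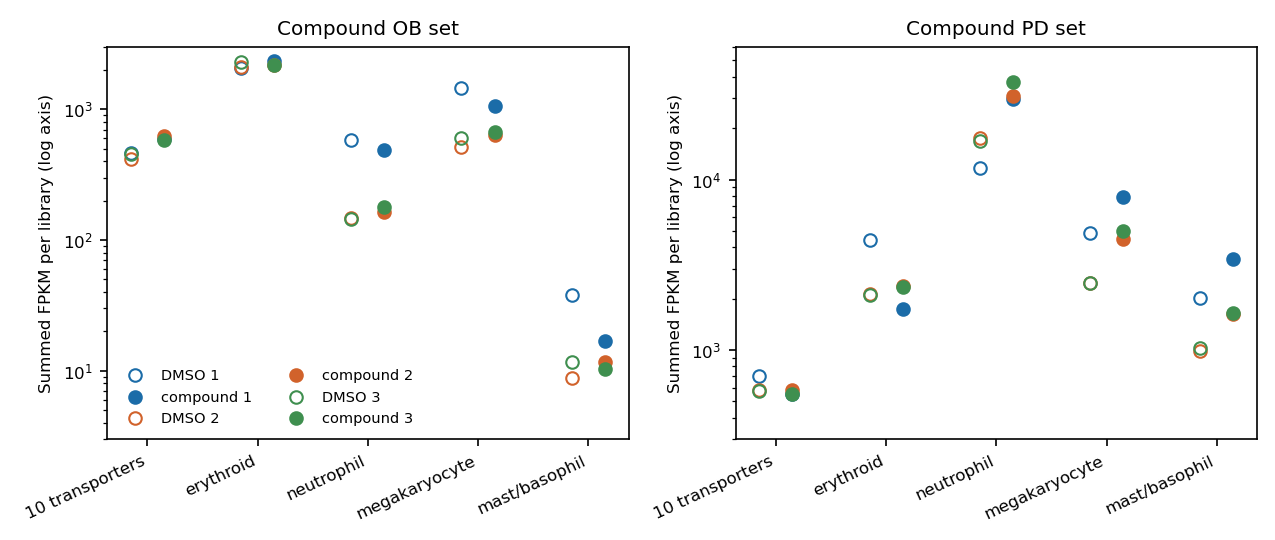
Summed FPKM per library (log axis) of the 10 transporters and of 4 marker lists, with the compound OB set on the left and the compound PD set on the right. Open points are DMSO libraries, filled points are compound libraries and colours are replicate numbers. In the compound OB set the libraries numbered 1 stand above the others in neutrophil and megakaryocyte markers, and the 3 compound OB libraries (582 to 625) stand above the 3 DMSO libraries (420 to 464) in the transporter sum.

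In DMSO the heavy chain Slc3a2 had the highest level of the 10 genes in both sets and Slc7a3 the lowest. In the compound OB set the order of the DMSO means was Slc3a2 (104.6 ± 7.69), Slc1a5 (96.2 ± 7.03), Slc7a5 (79.7 ± 18.2), Slc38a2 (47.8 ± 12.8), Slc38a5 (37.2 ± 5.77), Slc6a9 (30.5 ± 6.64), Slc7a1 (25.9 ± 2.73), Slc1a4 (13.0 ± 0.846), Slc7a11 (8.79 ± 4.67) and Slc7a3 (2.65 ± 1.60 FPKM, SD, n = 3). Neighbours in this order overlapped in their library values except Slc7a5 with Slc38a2, Slc7a1 with Slc1a4 and Slc1a4 with Slc7a11. In DMSO of the compound PD set Slc3a2 measured 181 ± 20.4, Slc7a5 129 ± 6.02, Slc1a5 108 ± 29.9, Slc6a9 50.5 ± 22.0, Slc38a2 43.9 ± 4.78, Slc38a5 41.6 ± 1.03, Slc7a1 27.2 ± 4.65, Slc1a4 22.5 ± 6.28, Slc7a11 11.7 ± 4.26 and Slc7a3 2.57 ± 2.72 (FPKM, SD, n = 3). The highest 3 and the lowest 4 genes were the same genes in both sets. The 2 tables list different numbers of genes and were normalised separately, so levels are not tested across them.

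After compound OB all 10 transporters had a higher mean than their DMSO controls, with a median log2 difference of 0.43 over the 10 genes against 0.03 over the 10073 genes tested, and 6 had no overlap between the groups. Those 6 were Slc7a1, Slc7a3, Slc7a5, Slc3a2, Slc1a4 and Slc1a5, and the share of all genes with compound OB above DMSO in this way was 5.31%, with 3.42% below. Of all genes, 58.7% had a log2 difference above 0. In the compound OB set same-numbered libraries deviated together, so pairs of the same number are also given. Libraries 2 and 3 were not clearly told apart by number (correlation 0.434 for 2 with 2, 0.413 for DMSO 2 with compound OB 3). Of the 10 genes, 9 were higher in all 3 pairs, against 23.1% of all genes tested (16.7% were lower in all 3). Since the genes were picked in this comparison, nothing is read from these shares. Over all genes, limma called 0 of 10073 genes after compound OB at an adjusted p of 0.05 (0%), with 372 (3.69%) at an unadjusted p under 0.05. With the replicate number as a block it called 7 (0.0695%), of which 4 were higher (0.0397%) and 3 lower (0.0298%), and 14.9% had an unadjusted p under 0.05.

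The cationic carriers bring in arginine, lysine and ornithine. Slc7a3, the cationic carrier of narrow tissue range, measured 1.22, 2.35 and 4.38 FPKM in DMSO libraries 1, 2 and 3 and 8.38, 12.7 and 14.7 in the compound OB libraries of the same numbers. All 3 compound OB libraries stood above all 3 DMSO libraries, and in each group library 1 was the lowest. The ratio within a pair was 6.87, 5.41 and 3.35, and the log2 difference of the groups was 1.89 (SE 0.35, n = 3 against 3). With a pseudocount of 0.1 the log2 difference was 2.26. Slc7a1, the cationic carrier found in most tissues, measured 22.8, 28.0 and 27.0 in DMSO and 30.0, 42.6 and 36.5 with compound OB. These groups did not overlap either, with pair ratios of 1.31, 1.52 and 1.35 and a log2 difference of 0.46 (SE 0.15). The Slc7a3 share of the summed FPKM of Slc7a1, Slc7a2 and Slc7a3, from which the scaling of a library cancels, was 5.06%, 7.74% and 13.9% in DMSO and 21.8%, 23.0% and 28.6% with compound OB. Its mean was 8.90% ± 4.54 and 24.5% ± 3.64 (SD, n = 3), and the 2 groups did not overlap. Slc7a3 is the numerator and was picked for its rise, so nothing is read from this separation.

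**Figure D2:**
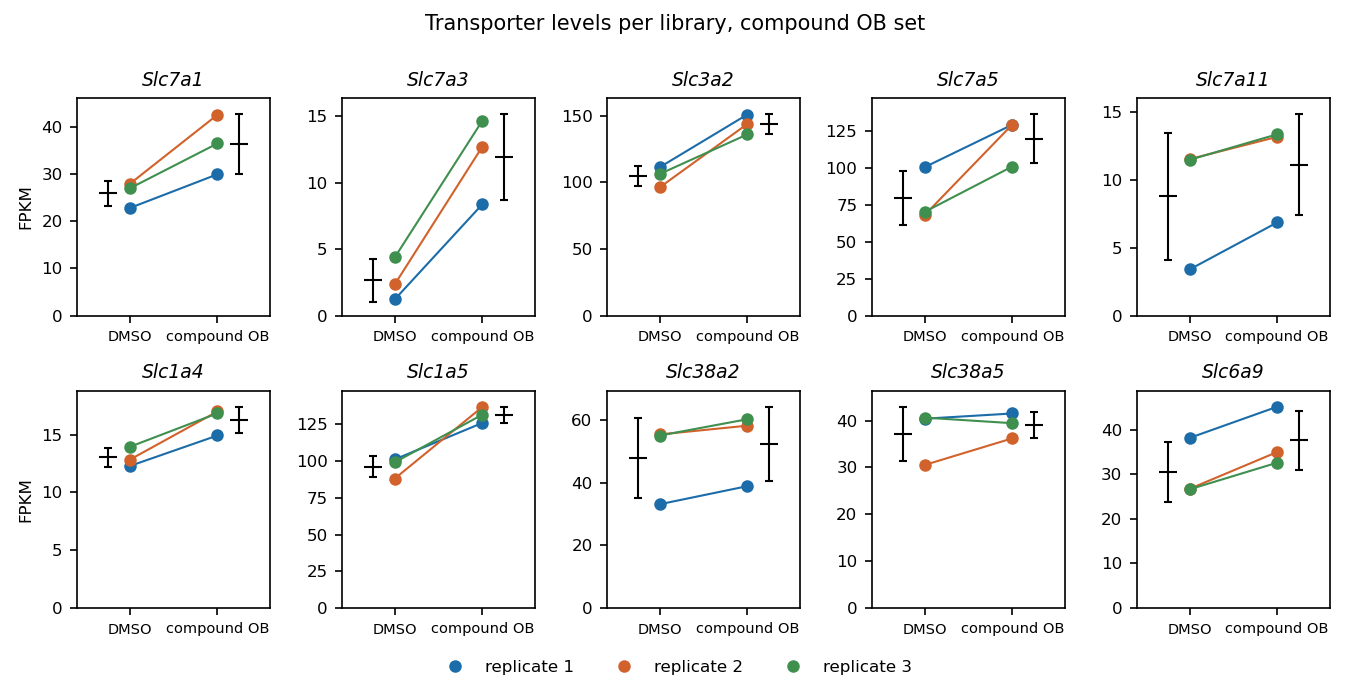
FPKM of the 10 transporters in the 6 libraries of the compound OB set. Points are libraries, lines join libraries of the same replicate number, and black bars are the mean ± SD of 3 libraries. The 3 lines of Slc7a3 run from 1.22, 2.35 and 4.38 in DMSO up to 8.38, 12.7 and 14.7, while library 1 stands apart from libraries 2 and 3 in both groups for Slc7a11 and Slc38a2.

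The heavy chain and its light chains came next. Slc3a2 measured 111, 96.2 and 106 FPKM in DMSO and 151, 144 and 136 with compound OB, with no overlap, pair ratios of 1.35, 1.50 and 1.28 and a log2 difference of 0.45 (SE 0.09). Slc7a5, the light chain that takes up leucine and other large neutral amino acids in exchange for glutamine, measured 101, 68.2 and 70.3 in DMSO and 129.5, 129.6 and 101 with compound OB. Its highest DMSO library lay just under its lowest compound OB library (100.7 and 101.1), and its log2 difference was 0.60 (SE 0.18). Slc7a11, the light chain that imports cystine for glutathione, measured 3.39, 11.5 and 11.5 in DMSO and 6.85, 13.2 and 13.3 with compound OB. The groups overlapped and both libraries numbered 1 were low. Each pair was higher with compound OB (ratios 2.02, 1.14 and 1.16), and the log2 difference was 0.41 (SE 0.46). Without DMSO library 1 that difference was -0.10.

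The level of the heavy chain relative to its partners overlapped between the groups. The ratio of Slc3a2 to the summed FPKM of the light chains Slc7a5, Slc7a6, Slc7a7, Slc7a8, Slc7a10 and Slc7a11 was 0.904, 0.991 and 1.07 in DMSO and 0.957, 0.877 and 0.998 with compound OB. The means were 0.988 ± 0.0830 and 0.944 ± 0.0615 (SD, n = 3). In the compound PD set the ratio was 1.26, 1.13 and 0.984 in DMSO and 1.09, 1.06 and 1.14 with compound PD, also overlapping.

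**Figure D3:**
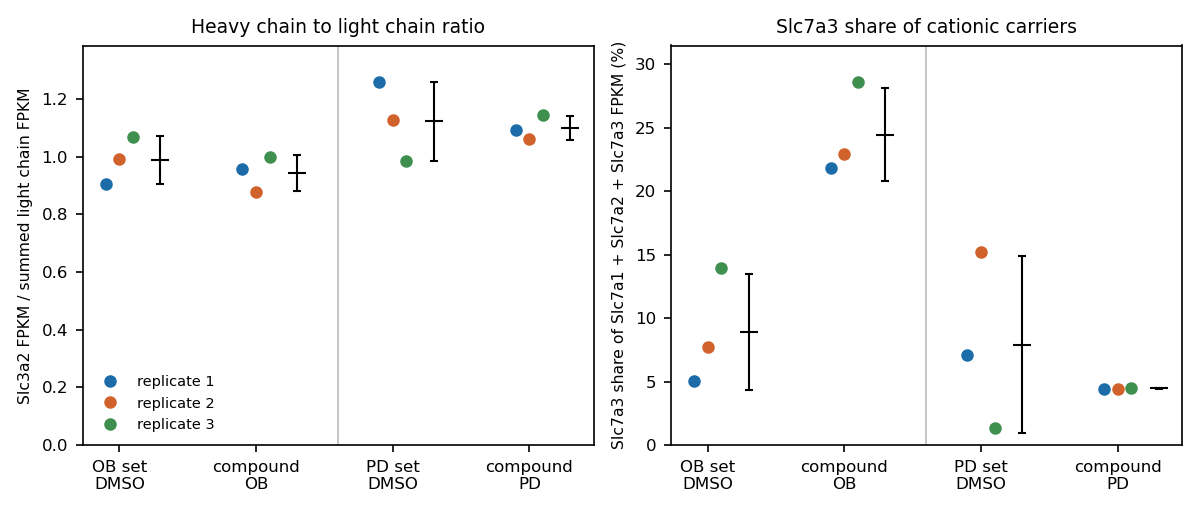
Ratio of Slc3a2 to its summed light chains (left) and Slc7a3 share of the summed cationic carriers in percent (right), in each library of the 4 groups. Points are libraries coloured by replicate number and black bars are the mean ± SD of 3 libraries. The ratio overlaps between each compound and its DMSO group. The Slc7a3 share reaches 21.8% to 28.6% with compound OB and at most 15.2% in every other library. Slc7a3 was picked for its rise after compound OB.

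The exchangers of small neutral amino acids were both without overlap. Slc1a5, the main glutamine exchanger of many dividing cells, measured 101, 88.1 and 99.2 FPKM in DMSO and 126, 137 and 132 with compound OB (pair ratios 1.25, 1.55 and 1.33, log2 difference 0.45, SE 0.09). Slc1a4, which exchanges alanine, serine and cysteine, measured 12.3, 12.8 and 13.9 in DMSO and 14.9, 17.0 and 16.8 with compound OB (log2 difference 0.30, SE 0.11). Their levels stood far apart, Slc1a5 being the more abundant in every library.

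Among the sodium-coupled carriers, Slc38a2 and Slc38a5 had the smallest log2 differences of the 10 genes. Slc38a2, a carrier of small neutral amino acids that cells raise when amino acids are scarce, measured 33.1, 55.3 and 55.0 FPKM in DMSO and 38.8, 58.1 and 60.2 with compound OB. Its groups overlapped, both libraries numbered 1 being low, and its log2 difference was 0.14 (SE 0.25) with all libraries and -0.10 without DMSO library 1. Slc38a5, a glutamine carrier, measured 40.4, 30.5 and 40.6 in DMSO and 41.5, 36.2 and 39.4 with compound OB. It was the 1 gene of the 10 that was not higher in all 3 pairs, and its log2 difference of 0.08 (SE 0.14) became -0.05 without DMSO library 2. Slc6a9, which brings in the glycine that heme synthesis starts from, measured 38.2, 26.8 and 26.6 in DMSO and 45.2, 35.0 and 32.6 with compound OB. Here library 1 was the highest of each group, the groups overlapped, and the pair ratios were 1.18, 1.31 and 1.22 (log2 difference 0.30, SE 0.18).

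Both libraries numbered 1 were also left out together, an alternative chosen after seeing the data that leaves 2 libraries a group. Limma then called 1773 of 9967 genes after compound OB, 1532 higher (15.4%) and 241 lower (2.42%), against 0 with all libraries. The same fit called 6 of 10 megakaryocyte markers and 3 of 8 neutrophil markers higher. With both libraries numbered 1 of the compound PD set left out, it called 205 of 11887 genes higher (1.72%) and 47 lower (0.395%), among them 8 of 10 megakaryocyte and 6 of 12 neutrophil markers, all higher. Their part in the list counts below was not tested.

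After compound PD none of the 10 transporters passed the test: limma called 0 of the 10 at an adjusted p of 0.05, and none was under 0.05 unadjusted either, with or without the replicate number as a block. Over all 11887 genes it called 3 (0.0252%), of which 1 was higher (0.00841%) and 2 lower (0.0168%), and 10.7% were under 0.05 unadjusted. With the block it called 41 (0.345%), 36 higher (0.303%) and 5 lower (0.0421%), with 9.64% under 0.05 unadjusted. Of the 10 genes 2 had a log2 difference above 0 and 8 below, with a median of -0.13 against 0.06 over all genes. In the compound PD set 59.1% of all genes were above 0. Groups did not overlap for Slc38a2, which was higher, and for Slc38a5, which was lower, 1 gene of 10 each, against 13.1% and 3.72% of all genes.

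Slc38a5 came nearest to the threshold. It measured 40.4, 42.2 and 42.1 FPKM in DMSO and 25.2, 37.0 and 33.0 with compound PD, all 3 below all DMSO libraries, with a log2 difference of -0.40 (SE 0.18, limma adjusted p = 0.475, unadjusted 0.0527). The 95% interval ran from -0.80 to 0.01. Slc38a2 measured 38.4, 46.9 and 46.5 in DMSO and 51.6, 49.5 and 49.3 with compound PD, with a log2 difference of 0.19 (SE 0.15, limma adjusted p = 0.778, interval -0.15 to 0.54). These members of the Slc38 family lay on opposite sides of their controls in this set, and the difference between them was not tested.

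Slc7a3 measured 1.70, 5.61 and 0.390 FPKM in DMSO and 1.20, 1.20 and 1.12 with compound PD. The 3 compound PD libraries were nearly equal and lay inside the wide DMSO range (log2 difference -0.42, SE 0.50, limma adjusted p = 0.893, interval -1.57 to 0.72). Without DMSO library 2 the difference was 0.17. Slc7a1 measured 22.0, 30.9 and 28.9 in DMSO and 25.7, 25.7 and 23.6 with compound PD, also overlapping (log2 difference -0.11, SE 0.18, limma adjusted p = 0.933).

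Slc3a2 and Slc7a5 differed little from their controls. Slc3a2 measured 204, 174 and 164 FPKM in DMSO and 173, 169 and 162.5 with compound PD (log2 difference -0.10, SE 0.14, interval -0.42 to 0.23). Slc7a5 measured 128, 123 and 135 in DMSO and 137, 132 and 114 with compound PD (log2 difference -0.02, SE 0.14, interval -0.34 to 0.30). Both groups overlapped, and the limma adjusted p was 0.922 and 0.987.

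DMSO library 1, the one with the highest erythroid marker sum, had the highest level of each of the other 4 genes. It had the lowest level of Slc7a1 and Slc38a2 (22.0 and 38.4 FPKM), and a link to that sum was not tested. Slc6a9 measured 75.7 FPKM in that library against 35.0 and 40.6 in DMSO libraries 2 and 3, and 35.2, 41.8 and 42.0 with compound PD. Slc1a5 measured 142 there against 94.2 and 87.8, and 77.3, 89.8 and 90.9 with compound PD. Slc1a4 measured 29.6 against 17.6 and 20.4, and 20.1, 28.5 and 26.9 with compound PD. Slc7a11 measured 16.6 against 9.70 and 8.84, and 7.66, 11.5 and 11.2 with compound PD. For all 4 the groups overlapped, with log2 differences of -0.26 (SE 0.27), -0.30 (SE 0.20), 0.17 (SE 0.23) and -0.16 (SE 0.27) in that order and limma adjusted p of 0.853, 0.713, 0.913 and 0.933. Without DMSO library 1 the difference of Slc6a9 was 0.07 and that of Slc7a11 0.10, and limma called 167 of all genes but none of the 10.

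**Figure D4:**
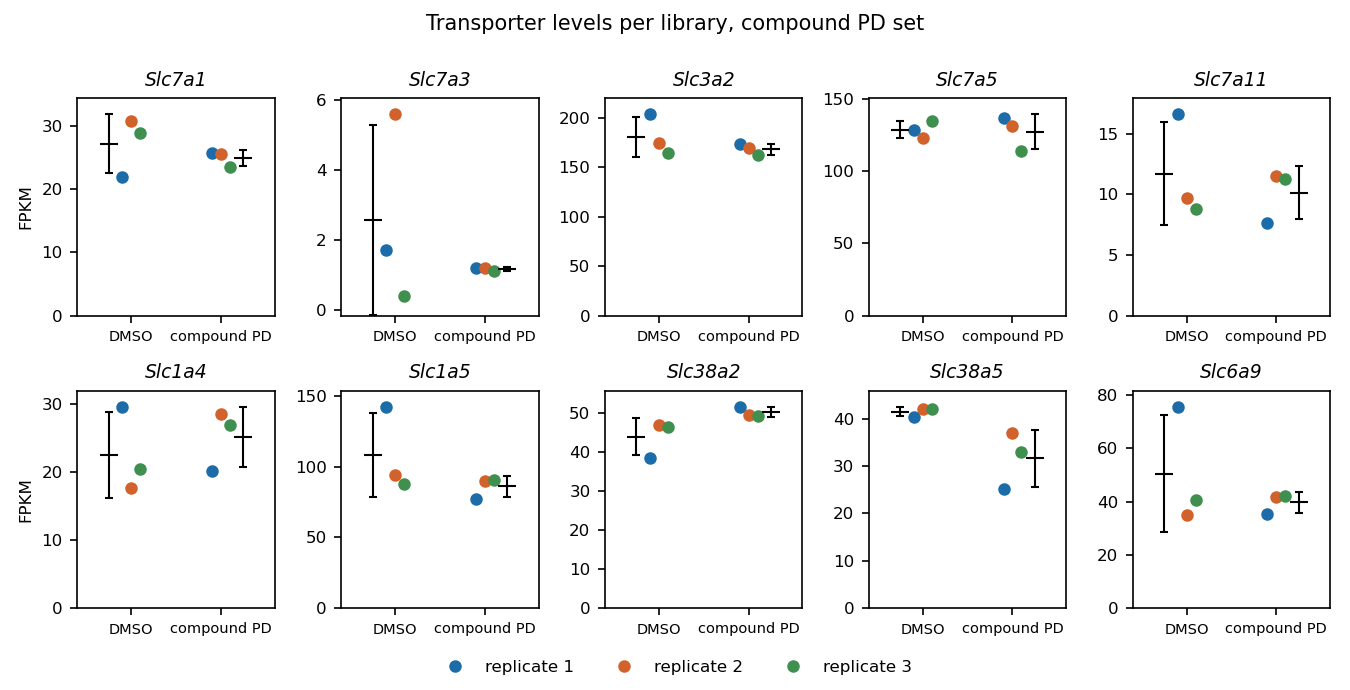
FPKM of the 10 transporters in the 6 libraries of the compound PD set. Points are libraries coloured by replicate number, set slightly apart sideways, and black bars are the mean ± SD of 3 libraries. DMSO library 1 is the highest of the 6 for Slc3a2, Slc7a11, Slc1a4, Slc1a5 and Slc6a9 (75.7 for Slc6a9), and the Slc7a3 DMSO values run from 0.390 to 5.61.

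Side by side, the log2 differences after compound OB and after compound PD were 1.89 and -0.42 for Slc7a3, 0.60 and -0.02 for Slc7a5, 0.45 and -0.10 for Slc3a2, 0.46 and -0.11 for Slc7a1 and 0.45 and -0.30 for Slc1a5. They were 0.41 and -0.16 for Slc7a11, 0.30 and -0.26 for Slc6a9 and 0.08 and -0.40 for Slc38a5. Slc1a4 (0.30 and 0.17) and Slc38a2 (0.14 and 0.19) were above 0 in both. The compounds were given at different doses and each in its own set of libraries, so compound, dose and set cannot be told apart. The difference between the compounds was not tested, because the genes were picked on one of the 2 comparisons.

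**Figure D5:**
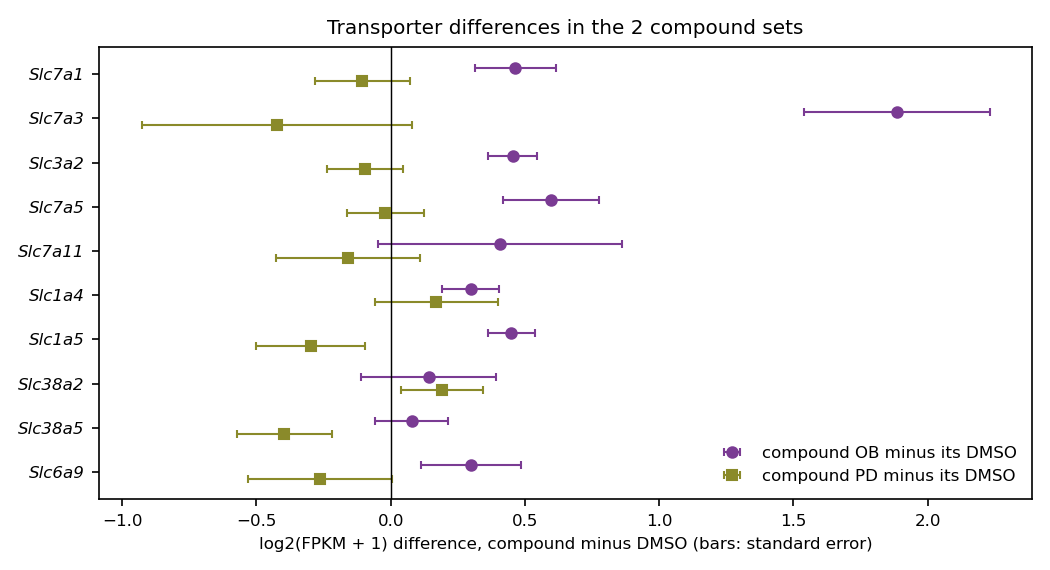
Log2(FPKM + 1) difference of each transporter, compound minus its own DMSO group, for compound OB (circles) and compound PD (squares), with bars of 1 standard error from 3 libraries against 3. All 10 circles lie above 0, with Slc7a3 at 1.89, and 8 of the 10 squares lie below 0.

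Of 46 other amino acid transporters, 15 reached a mean of 1 FPKM in the compound OB set and 17 in the compound PD set, and limma called none of them in either set. At an unadjusted p under 0.05 there were 3 in the compound OB set and 1 in the compound PD set, against 3.69% and 10.7% of all genes. In the compound OB set 9 of 15 were above 0 (median log2 difference 0.15), against 58.7% of all genes. Of the 15, 3 had no overlap, all higher, against 5.31% of all genes higher and 3.42% lower. Slc7a7, a light chain of Slc3a2 that exchanges cationic for neutral amino acids, measured 7.43, 6.45 and 6.87 FPKM in DMSO and 10.7, 10.2 and 10.1 with compound OB (log2 difference 0.52, SE 0.11, limma adjusted p = 0.547, 0.119 with the replicate number as a block). Slc43a1, a carrier of branched-chain amino acids that is abundant in erythroid cells, measured 53.5, 53.6 and 64.6 in DMSO and 66.2, 77.7 and 74.5 with compound OB (log2 difference 0.34, limma adjusted p = 1.00). Slc38a1, a glutamine carrier, measured 27.6, 26.8 and 28.4 in DMSO and 30.5, 40.3 and 35.1 with compound OB (log2 difference 0.34, limma adjusted p = 1.00). These 3 genes passed in the fit without both libraries numbered 1, where 6 of 15 were called higher and 0 lower, against 15.4% and 2.42% of all genes. The taurine carrier Slc6a6, called there too, measured 13.7, 9.39 and 9.17 in DMSO and 13.6, 13.7 and 11.7 with compound OB.

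In the compound PD set the other transporters were mixed, with 7 of 17 above 0 (median log2 difference -0.06), 3 without overlap higher and 1 lower. Over all genes 59.1% were above 0, with 13.1% higher and 3.72% lower without overlap. Slc6a6 measured 13.8, 23.4 and 24.5 FPKM in DMSO and 29.2, 31.1 and 28.1 with compound PD (log2 difference 0.54, SE 0.23, limma adjusted p = 0.437). Slc43a1 measured 163, 88.1 and 76.9 in DMSO and 55.5, 80.3 and 82.0 with compound PD. The aromatic amino acid carrier Slc16a10, named after its values were seen, measured 267, 102 and 111 in DMSO and 63.0, 109.8 and 121 with compound PD. Both were highest in DMSO library 1, as Slc6a9 was, and lowest in compound PD library 1, the library with the lowest erythroid marker sum (1734 FPKM). Slc6a6 and Slc38a1 were instead lowest in DMSO library 1 (13.8 and 16.8 FPKM). A link between these levels and the marker sum was not tested.

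The wider response to amino acid shortage was followed in 30 genes that are not transporters, a list written with earlier results of these data known. After compound OB 28 of the 30 were above 0, against 58.7% of all genes, with a median log2 difference of 0.25 against 0.03. Groups did not overlap for 10, all higher, against 5.31% of all genes higher and 3.42% lower. Limma called 0 of the 30 with or without the replicate number as a block. An unadjusted p under 0.05 was seen for 8 (19 with the block), against 3.69% (14.9%) of all genes. Since the list was written with earlier results of these data known, nothing is read from these counts. Pck2, which makes phosphoenolpyruvate in mitochondria, measured 38.9, 39.0 and 41.7 FPKM in DMSO and 62.5, 63.3 and 57.7 with compound OB. Chac1, which breaks down glutathione, measured 8.56, 9.59 and 11.6 in DMSO and 16.5, 17.3 and 14.7 with compound OB. Without both libraries numbered 1, limma called 14 of the 30 higher and 0 lower, against 15.4% and 2.42% of all genes in that fit, which also called 6 of 10 megakaryocyte markers higher.

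After compound PD 23 of 28 tested genes of the same list were below 0, with a median log2 difference of -0.18. Nothing is read from the counts of this list here either. Its summed level was 2766, 2419 and 2446 FPKM in DMSO and 1950, 2314 and 2232 with compound PD. The part of the libraries numbered 1 in these differences was not tested. Over all genes 59.1% were above 0. Limma called 0 of the list, while 2 were under 0.05 unadjusted, against 10.7% of all genes. Groups did not overlap for 7, all lower, against 3.72% of all genes lower and 13.1% higher. Asns, which makes asparagine, measured 240, 262 and 240.0 FPKM in DMSO and 182, 213 and 206 with compound PD (log2 difference -0.30, SE 0.14, limma adjusted p = 0.473). Mthfd2, a mitochondrial folate enzyme, measured 153, 152 and 163 in DMSO and 108, 128 and 131 with compound PD (log2 difference -0.35, limma adjusted p = 0.428). Without both libraries numbered 1, limma called 2 of the list higher in this set, Ddit4 and Trib3 (Ddit4 is named after its values were seen), against 1.72% of all genes.

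Genes by which mTORC1 senses amino acids had no common direction after compound OB, with 16 of 32 above 0, a median log2 difference of -0.01 and 3 without overlap on each side. Over all genes 58.7% were above 0, with 5.31% higher and 3.42% lower without overlap. The kinase itself, Mtor, measured 6.11, 5.57 and 6.05 FPKM in DMSO and 6.35, 8.63 and 7.28 with compound OB (log2 difference 0.28, limma adjusted p = 1.00). After compound PD 20 of 35 were above 0 (median 0.08), against 59.1% of all genes. Lamtor4, part of the lysosomal anchor of mTORC1, measured 34.9, 47.7 and 50.6 in DMSO and 74.4, 55.1 and 68.3 with compound PD (log2 difference 0.57, SE 0.19, limma adjusted p = 0.318). Limma called 0 genes of this list in either set. At an unadjusted p under 0.05 there were 0 and 1, against 3.69% and 10.7% of all genes. Without both libraries numbered 1 it called 5 higher and 1 lower of the 32 after compound OB, near the 15.4% and 2.42% of all genes, and 0 of the 35 after compound PD.

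Genes of glutathione synthesis and of the NRF2 response depend on the cystine that Slc7a11 imports or share its regulators. Their median log2 difference was 0.05 after compound OB (10 of 14 above 0) and -0.10 after compound PD (4 of 14 above 0). Over all genes 58.7% and 59.1% were above 0. Gclc, which makes the first bond of glutathione, measured 52.6, 38.3 and 44.0 FPKM in DMSO and 65.0, 46.9 and 48.0 with compound OB, with overlap. After compound OB no overlap was seen for 1 gene on each side, against 5.31% of all genes higher and 3.42% lower. After compound PD 0 genes were higher without overlap and 2 lower, against 13.1% and 3.72% of all genes. Prdx1, a peroxidase, measured 259, 228 and 243 in DMSO and 218, 186 and 199.6 with compound OB (log2 difference -0.27, SE 0.09, limma adjusted p = 1.00), and the heme transporter Slc48a1 measured 84.8, 63.5 and 72.7 in DMSO and 93.6, 86.6 and 85.3 with compound OB. Gclm, the partner subunit of Gclc, measured 468, 503 and 455 in DMSO and 369, 433 and 396 with compound PD (log2 difference -0.25, SE 0.13, limma adjusted p = 0.538). Limma called 0 of the 14 in either set, with 1 at an unadjusted p under 0.05 in each, against 3.69% and 10.7% of all genes. Without both libraries numbered 1 3 of the 14 were called higher and 1 lower in the compound OB set, against 15.4% and 2.42% of all genes. In the compound PD set it then called 1 higher, against 1.72% of all genes: the heme-degrading enzyme Hmox1, named after its values were seen.

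Among 7887 other genes that reached a mean of 5 FPKM, those whose pattern over the 6 compound OB set libraries was most like Slc7a3 were Phf10 (Pearson r 0.996), Rnf19a (0.995) and Mt2 (0.990). Phf10, a chromatin remodelling subunit, measured 129.6, 138 and 146 in DMSO and 165, 171 and 176 with compound OB. Like Slc7a3, all 3 had library 1 lowest in DMSO and again with compound OB. The genes most like Slc3a2 were Shmt2 (0.994), a mitochondrial serine enzyme, Slc7a7 (0.991) and Jak1 (0.990). Slc7a3 and Slc3a2 themselves had an r of 0.802, and among the other 8 transporters Slc1a4 was closest to Slc7a3 (0.986) and Slc1a5 to Slc3a2 (0.959). These correlations describe 6 libraries that share their 2 groups and their replicate numbers, and the points are not independent. Slc7a3 and Slc3a2 were picked for their rises in these libraries, so nothing is read from the rankings. Slc7a3 reached a mean of 5 FPKM only through the compound OB libraries (mean 2.65 in DMSO and 11.9 with compound OB).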

How the data were processed

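RNA values were FPKM, deposited by the authors with 2 decimals for each gene of each of 12 libraries, per the file headers. The submitters' processing notes name the aligner STAR and the build mm10. Its version, the annotation, the use of strand and the program behind the FPKM values are not stated in those notes or the headers, so values of overlapping or near-identical genes are uncertain. FPKM carries no counts, and low values gave no whole-read steps (9.47% and 10.3% of ratios between libraries whole within 0.05, against 10% by chance). Depth is therefore unknown, and precision is the SD over 3 libraries. In the compound OB set 428 entries whose name was only the first part of hyphenated symbols and 27 names that read as dates were dropped. In the compound PD set 27 such dates and 185 entries that repeated a symbol, Ddit3 among them, were left out.

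Limma 3.58.1 (R 4.3.3, statmod 1.5.0; trend and robust options) compared the 3 libraries of each compound with the 3 of its DMSO group on log2(FPKM + 1). Genes whose mean over the 6 libraries was under 1 FPKM were left out. Tests were two-sided, adjusted by the Benjamini-Hochberg method over all genes, with a threshold of 0.05. The fit was tested on simulated data. Same-numbered libraries deviated together in the compound OB set (correlations 0.831, 0.434 and 0.652), but not in the compound PD set (-0.01, -0.03 and -0.02). In the compound OB set DMSO library 2 also correlated with compound library 3 (0.413), and DMSO library 3 with compound library 2 (0.327). The values therefore set library 1 apart, while the pairing of libraries 2 and 3 by number is uncertain. The pairing comes from these values, since the labels give only numbers. The 10 genes and all lists were chosen with earlier results of these data known. The text names all 10 genes, up to 4 genes per list and set by smallest p (mean 5 FPKM or more), the 3 genes most correlated with Slc7a3 and with Slc3a2, and Gata1, Klf1 and Kit as a check of cell identity, Gata1 being outside that rule. Alternatives were other pseudocounts (0.1 and 0.5), filters and scalings, the block and left-out libraries. Python 3.11.15, pandas 2.3.3, numpy 2.4.6 and matplotlib 3.10.9 were used, and promoter windows came from RefSeq on GRCm38.p6.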

Additional observations from a re-analysis of the deposited data

How the results depend on the processing

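After compound OB the log2 differences of all 10 genes stayed above 0 under the other pseudocounts and scalings. The filters and the block cannot change a gene's own difference in this design, so they are no check of it. The genes were picked in this comparison, and nothing is read from these signs. With a library left out Slc7a11 ran from -0.10 to 0.69, Slc38a2 from -0.10 to 0.34 and Slc38a5 from -0.05 to 0.15, and the other 7 stayed above 0. After compound PD no alternative called any of the 10 genes. Slc7a5 turned to 0.007 with quantile normalization. With libraries left out Slc7a5 ran from -0.075 to 0.059, Slc7a11 from -0.32 to 0.27, Slc6a9 from -0.48 to 0.15 and Slc7a3 from -0.96 to 0.17, none of them past the threshold.

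Over all genes, limma called 0 after compound OB, 7 with the replicate block and 0 to 1773 with libraries left out (14 without DMSO library 1, 1773 without both libraries numbered 1, the latter chosen after seeing the data). After compound PD it called 3, 0 with no filter on low values, 41 with the replicate block and 0 to 252 with libraries left out (167 without DMSO library 1, 252 without both numbered 1). The numbers do not pair the compound PD libraries, and not every one of them correlated best with its own number. The block changed no call of the 10 genes in that set. The cause of these shifts was not tested. The ratio of Slc3a2 to its light chains was higher with only Slc7a5 and Slc7a11 summed, by construction: 1.19 in DMSO and 1.10 with compound OB, 1.29 in DMSO and 1.23 with compound PD. With a library left out, the ratios ran from 0.947 to 1.03, 0.917 to 0.978, 1.05 to 1.19 and 1.08 to 1.12 in that order of groups. The Slc7a3 share ran from 6.40% to 10.8% in DMSO and from 22.4% to 25.8% with compound OB, and from 4.23% to 11.2% and 4.43% to 4.47% in the compound PD set. Slc7a3 was left out of the compound PD fit under a filter of 5 FPKM. Depth is unknown, so the counting error of its low values cannot be given.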
